A study of Mus musculus with 16 samples.

Results

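The Fcγ receptor genes of mouse macrophages were described through the H3K27ac peaks around them. The 5 members were Fcgr1, Fcgr2b, Fcgr3, Fcgr4 and Fcer1g, and a peak was assigned to a member when its nearest edge lay within 50 kb of any start site of that gene in the mm10 build. The 4 deposited peak lists held 68 (Control), 57 (IFNγ), 69 (PJ34) and 66 (IFNγ+PJ34) such peaks, of 43533, 40708, 44090 and 42960 peaks in all. Peaks that overlapped between lists were merged into regions, which gave 71 regions around the 5 genes, of 55218 regions in all.

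The macrophages were grown from the bone marrow of C57Bl6 mice of 8 to 12 weeks (BMDMs). H3K27ac, the acetylation of histone H3 that marks promoters and enhancers in use, was profiled in them by ChIP-seq. BMDMs were left untreated (Control), given 100 ng/mL IFNγ for 1 h, given 20 µM PJ34, an inhibitor of PARP enzymes, or given IFNγ with PJ34 added 1 h before it (IFNγ+PJ34). The series holds 8 ChIP samples and 8 matched input samples, 2 of each per condition, and the authors made 1 list per condition from the peaks called in both replicates. Each condition therefore gave 1 value per gene or region with no replicate spread, no difference described here has a test, and the depth behind the values is unknown because the lists hold no read counts.

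Fcγ receptors bind the constant part of IgG on opsonised particles and immune complexes, and link antibody to phagocytosis and cytokine release. Fcgr1 encodes the high affinity receptor FcγRI, and Fcgr3 and Fcgr4 encode the activating receptors FcγRIII and FcγRIV. These 3 receptors pair with the γ chain encoded by Fcer1g, whose ITAM recruits the kinase Syk. Fcgr2b encodes FcγRIIB, the inhibitory receptor, whose ITIM recruits the phosphatase SHIP1. GAS elements are short sequences found at many IFNγ-induced genes, and Fcgr1 is a textbook example of such a gene.

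Macrophage genes carried H3K27ac at their promoters. All 7 macrophage markers examined (Adgre1, Csf1r, Spi1, Cd68, Itgam, Mertk and Lyz2) had a promoter peak in the 4 lists, at score percentiles from 44.0 to 99.99. None of the 3 T cell markers and none of the 3 NK cell markers had one, and the B cell gene Pax5, the mast cell genes Cpa3 and Mcpt4 and the fibroblast genes Col1a1 and Col3a1 had none. Promoter peaks were present in the 4 lists at Ms4a1, a B cell gene, and at the dendritic cell genes Zbtb46 and Xcr1. In Control, IFNγ, PJ34 and IFNγ+PJ34, Xcr1 stood at percentiles of 79.4, 10.4, 72.4 and 79.9. In the same order Ms4a1 stood at 55.9, 10.4, 38.2 and 15.6, and Zbtb46 at 19.9, 10.4, 46.0 and 15.6. Some of these values lay within the range of the macrophage markers. Camp, a neutrophil gene, had one in 3 lists, S100a8 in 2 lists, and Kit and Pdgfrb in the PJ34 list. The part of other cells in the values given here was not tested.

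Fcgr2b, Fcgr4, Fcgr3 and Fcer1g lie on chromosome 1. Fcgr2b (ENSMUSG00000026656.15) spans chr1:170958617-170976547 on the minus strand, Fcgr4 (ENSMUSG00000059089.4) spans chr1:171018920-171029761 on the plus strand, and Fcgr3 (ENSMUSG00000059498.13) spans chr1:171051174-171064935 on the minus strand. Fcer1g (ENSMUSG00000058715.11) lies further along, at chr1:171229572-171234365 on the minus strand. Fcgr1 (ENSMUSG00000015947.10) lies at chr3:96282909-96293969 on the minus strand, beside a cluster of histone genes. The windows of Fcgr2b, Fcgr4 and Fcgr3 overlap, so that these genes share peaks.

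The promoters of Fcgr1 and Fcgr4 are shown because their H3K27ac differed most between lists, and that of Fcer1g because it was lowest in IFNγ+PJ34. Each sequence holds the 250 bases before the RefSeq start on the strand of the gene (GRCm38, the assembly of mm10). Capitals mark a GAS (TTCNNNGAA), the PU.1 core (GAGGAA) or the ISRE core, each searched on both strands.
Fcgr1, chr3:96293970-96294219: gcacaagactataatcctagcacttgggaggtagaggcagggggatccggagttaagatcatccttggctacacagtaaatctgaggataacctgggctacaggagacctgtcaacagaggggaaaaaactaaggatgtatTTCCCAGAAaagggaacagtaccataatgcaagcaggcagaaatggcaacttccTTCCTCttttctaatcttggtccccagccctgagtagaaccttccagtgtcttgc
Fcgr4, chr1:171018676-171018925: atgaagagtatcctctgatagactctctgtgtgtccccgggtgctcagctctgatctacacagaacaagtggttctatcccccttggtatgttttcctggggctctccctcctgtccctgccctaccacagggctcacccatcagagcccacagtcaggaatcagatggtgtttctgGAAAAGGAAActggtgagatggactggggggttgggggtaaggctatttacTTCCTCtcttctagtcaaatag
Fcer1g, chr1:171234350-171234599: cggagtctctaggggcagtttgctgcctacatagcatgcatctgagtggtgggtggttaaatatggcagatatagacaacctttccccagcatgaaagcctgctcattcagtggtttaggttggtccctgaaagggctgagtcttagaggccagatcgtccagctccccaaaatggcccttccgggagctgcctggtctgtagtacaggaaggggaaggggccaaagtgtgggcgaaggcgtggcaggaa
The Fcgr1 promoter held 1 GAS that began 109 bases before the start, with the letters TTCCCAGAA, and 1 PU.1 core 55 bases before it. The Fcgr4 promoter held 1 ISRE core, 73 bases before the start, and 1 PU.1 core at 22 bases, and no GAS. The Fcer1g promoter held none of the 3, and neither did that of Fcgr2b. The Fcgr3 promoter held 1 PU.1 core. Over all 32851 RefSeq promoters of the same length, 7.02% held a GAS, 23.3% the PU.1 core and 2.98% the ISRE core. A match is a description of the letters and not a bound site.

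All 5 genes had a promoter peak, within 1 kb of a start site, in each of the 4 lists. Levels are given as the fold enrichment of the highest promoter peak over input, as deposited, and as the percentile of its score among all peaks of its list. The score percentile places a peak by its score within its own list, from 0 for the lowest to 100 for the highest. The fold enrichments of the lists are not on a common scale, since the median promoter ratio was 0.748 for IFNγ over Control, 0.924 for PJ34 over Control, 0.960 for IFNγ+PJ34 over IFNγ and 0.777 for IFNγ+PJ34 over PJ34. Differences between lists are therefore given as ratios relative to these medians, and a promoter or region is called higher or lower where that ratio reached 1.5 in either direction.

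Fcgr4 had the widest range of promoter H3K27ac among the members. Its fold enrichment was 26.5 (Control), 53.4 (IFNγ), 11.5 (PJ34) and 65.1 (IFNγ+PJ34), at score percentiles of 88.5, 97.4, 79.2 and 99.2. Both lists with IFNγ stood above both lists without it.

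The promoter of Fcgr1, the high affinity receptor, had fold enrichments of 76.2 (Control), 55.0 (IFNγ), 23.7 (PJ34) and 69.7 (IFNγ+PJ34). Its score percentiles were 98.2, 97.8, 88.6 and 99.4. The PJ34 list stood apart from the other 3. In those, at most 8.54% of the promoters scored as high as Fcgr1, whereas in the PJ34 list 44.2% did.

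The promoter of the inhibitory receptor Fcgr2b had fold enrichments of 29.6, 36.6, 16.4 and 39.5 in Control, IFNγ, PJ34 and IFNγ+PJ34, at percentiles of 91.0, 92.9, 84.7 and 95.9. Its order over the lists was that of Fcgr4, over a narrower range. For Fcgr3 the fold enrichments were 42.6, 39.5, 43.8 and 63.8 in the same order, at percentiles of 94.4, 97.5, 93.3 and 99.2. By fold enrichment, the IFNγ+PJ34 list stood apart here. Its peak reached over the start, but its summit lay 1.49 kb inside the gene, in an exon (chr1:171057918). The summits in Control, IFNγ and PJ34 lay nearer the start, at chr1:171059179, 171059138 and 171059124. The Fcgr3 values of IFNγ+PJ34 are thus not those of a summit at the promoter.

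The promoter of Fcer1g, the shared γ chain, had fold enrichments of 66.7, 37.9, 39.2 and 22.9 in Control, IFNγ, PJ34 and IFNγ+PJ34. Its percentiles were 99.1, 96.1, 97.7 and 93.4. It was highest in Control and lowest in IFNγ+PJ34, the list in which Fcgr2b, Fcgr3 and Fcgr4 were highest. With 1 list per condition, no neighbours in these orders can be said to differ beyond a replicate spread.

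**Figure D1:**
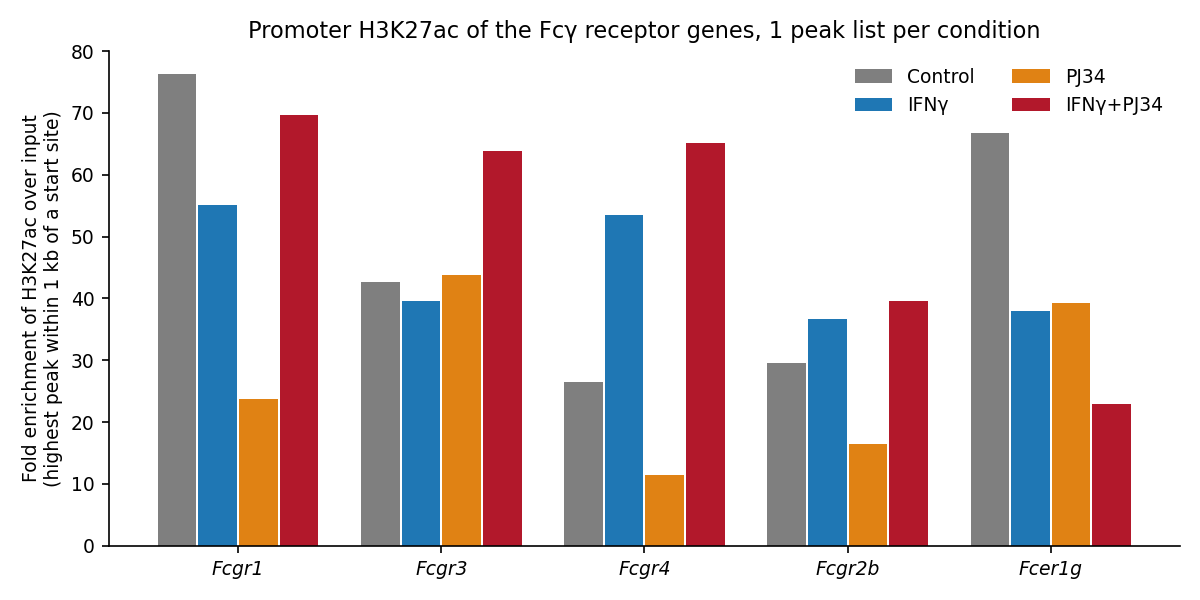
Fold enrichment of H3K27ac over input (vertical axis) at the promoters of the 5 genes (horizontal axis), 1 bar per peak list, with no error bars because each condition has 1 list. Fcgr4 stood at 53.4 and 65.1 in the lists with IFNγ and at 26.5 and 11.5 in those without it, whereas Fcer1g stood at 66.7 in Control and at 22.9 in IFNγ+PJ34.

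The IFNγ list was set against Control to show which of these genes had more H3K27ac after 1 h of the cytokine. Relative to the median of 10652 promoters, the Fcgr4 promoter was 2.69 times as high in IFNγ as in Control, at or above 98.8% of all promoters in this ratio. The Fcgr2b promoter was 1.65 times as high. Fcgr3 (1.24), Fcgr1 (0.965) and Fcer1g (0.761) did not reach the threshold. The count was thus 2 of 5 promoters higher and 0 of 5 lower, where 15.7% of all promoters were higher and 16.7% lower. By peak width neither the Fcgr4 promoter, with 4021 bp covered in Control and 4303 bp in IFNγ, nor that of Fcgr2b (log2 ratio 0.041) reached the threshold. By score Fcgr2b did not, at a log2 ratio of 0.42 in place of 0.73, and Fcgr3 did, at 0.72 in place of 0.31.

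The regions around the genes were compared in the same way. Of the 37 regions found in both lists, 13 were higher in IFNγ by fold enrichment (35.1%, against 20.7% of all regions) and 8 were lower (21.6%, against 20.7%). By score percentile, with a threshold of 10 points, 7 were higher (18.9%, against 14.9% of all regions) and 7 were lower (18.9%, against 28.7%). Of the 57 IFNγ peaks, 6 had no overlap with a Control peak (10.5%, exact 95% interval 3.96 to 21.5%), against 16.8% of all IFNγ peaks. These 6 were weak, with a highest percentile of 48.7, and the highest lay beside Apoa2, an apolipoprotein gene, in the Fcer1g window. None of the 6 lay in the Fcgr1 window. In the other direction, 19 of 68 Control peaks were absent from IFNγ (27.9%, interval 17.7 to 40.1%), against 31.7% of all Control peaks. The intervals given here and elsewhere cover counting error only and treat neighbouring peaks as independent.

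PJ34 alone was set against Control to compare the inhibitor with no treatment in the absence of the cytokine. The Fcgr1 promoter was 0.337 times as high relative to the median, among the lowest 0.839% of 10852 promoters. Fcgr4 stood at 0.468 times, Fcgr2b at 0.599 times and Fcer1g at 0.636 times, and Fcgr3 at 1.11 times. Thus 4 of 5 promoters were lower and 0 of 5 higher, where 15.0% of all promoters were lower and 12.4% higher. Fcer1g did not reach the threshold by score. By width 0 of 5 reached it, and the log2 ratio of Fcer1g was 0.17 in place of -0.65. Among the 44 regions in both lists, 15 were lower by fold enrichment (34.1%, against 19.5% of all regions) and 9 were higher (20.5%, against 16.9%). By percentile, 9 were lower (20.5%, against 20.1%) and 6 were higher (13.6%, against 18.5%), so that the regions as a whole did not stand apart from the background on this measure. Of the 69 PJ34 peaks, 10 were absent from Control (14.5%, interval 7.17 to 25.0%), against 19.5% of all PJ34 peaks.

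IFNγ+PJ34 was set against IFNγ to show H3K27ac under the cytokine with and without the inhibitor. The Fcgr3 promoter was 1.68 times as high relative to the median of 10558 promoters, and the Fcer1g promoter stood at 0.630 times. For Fcgr3 this sets a summit inside the gene in IFNγ+PJ34 against one near the start in IFNγ. Fcgr1 (1.32), Fcgr4 (1.27) and Fcgr2b (1.12) did not reach the threshold. This is 1 of 5 promoters higher and 1 of 5 lower, where 19.8% of all promoters were higher and 17.6% lower. By score neither reached the threshold, at log2 ratios of 0.43 for Fcgr3 and -0.41 for Fcer1g. Fcgr3 also missed it relative to the median of all regions (0.55), and Fcer1g by width (-0.068). By fold enrichment, the regions gave a wider difference than the promoters. Of the 40 regions in both lists, 21 were higher in IFNγ+PJ34 by fold enrichment (52.5%, against 24.0% of all regions) and 3 were lower (7.50%, against 22.2%). By percentile, 11 were higher (27.5%, against 26.1%) and 2 were lower (5.00%, against 21.4%), so that the higher share was near that of all regions on this measure.

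The IFNγ list held few peaks at these genes that IFNγ+PJ34 lacked. Only 3 of 57 IFNγ peaks were absent from IFNγ+PJ34 (5.26%, interval 1.10 to 14.6%), against 24.1% of all IFNγ peaks. These 3 lay in the Fcer1g window, 2 of them in the Fcer1g promoter region. Around Fcgr1, Fcgr2b, Fcgr3 and Fcgr4, 0 IFNγ peaks were absent from IFNγ+PJ34. When a peak within 1 kb counted as shared, 0 of 57 were absent, and the share of all IFNγ peaks under that rule was not computed. Conversely, 23 of 66 IFNγ+PJ34 peaks were absent from IFNγ (34.8%, interval 23.5 to 47.6%), against 27.2% of all IFNγ+PJ34 peaks. These 23 had a median percentile of 21.9 and a highest percentile of 61.0. By window, which overlap, they were 11 of 24 peaks at Fcgr2b, 8 of 19 at Fcgr1, 4 of 17 at Fcgr4, 2 of 10 at Fcgr3 and 2 of 14 at Fcer1g.

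IFNγ+PJ34 was set against PJ34 to show the cytokine in the presence of the inhibitor. Relative to the median of 10658 promoters, Fcgr4 was 7.29 times as high (at or above 99.8% of promoters), Fcgr1 was 3.78 times, Fcgr2b 3.10 times and Fcgr3 1.88 times as high. For Fcgr3 the IFNγ+PJ34 summit lay inside the gene and the PJ34 summit near the start. Fcer1g stood at 0.753 times. This is 4 of 5 promoters higher, where 20.4% of all promoters were higher, and 0 of 5 lower, where 18.9% were lower. Relative to the median of all regions, which is the scale of the region counts, Fcer1g was lower, at a log2 ratio of -0.71 in place of -0.41. By width Fcgr1 and Fcgr3 reached the threshold, and Fcgr4 and Fcgr2b did not. Of the 46 regions in both lists, 23 were higher by fold enrichment (50.0%, against 26.9% of all regions) and 7 lower (15.2%, against 24.0%). By percentile, 18 were higher (39.1%, against 22.1%) and 7 lower (15.2%, against 30.9%). Of 66 peaks, 15 were absent from PJ34 (22.7%, interval 13.3 to 34.7%), against 25.7% of all IFNγ+PJ34 peaks. The 4 comparisons share lists, so their values are not independent of each other. The PJ34 values of Fcgr1, Fcgr2b, Fcgr4 and Fcer1g, which were lower than those of Control, enter both comparisons with PJ34.

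**Figure D2:**
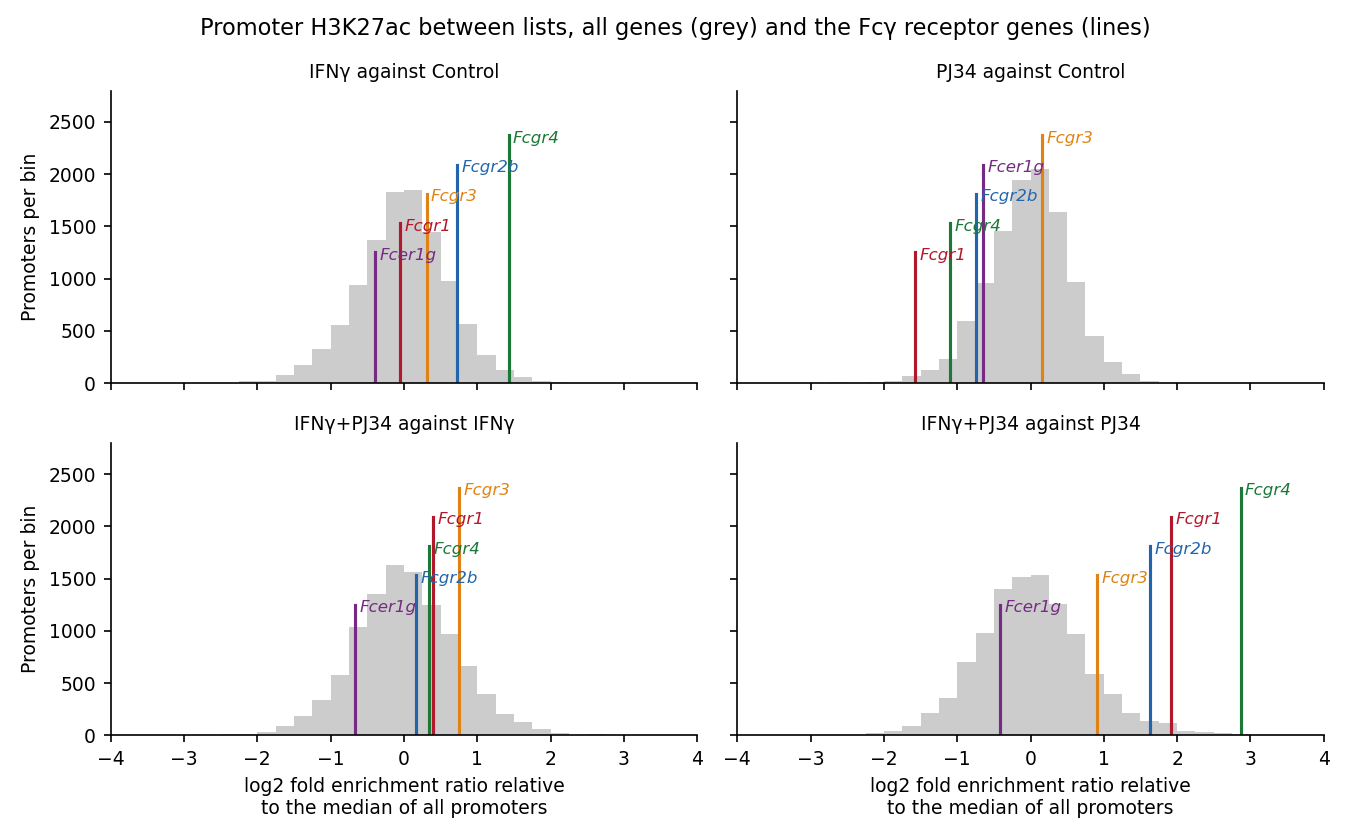
Distribution over all promoters (grey bars, number per bin of log2 ratio) of the fold enrichment ratio between lists relative to the median promoter, for 4 comparisons, with the 5 genes as lines. Fcgr4 lay at 1.43 in IFNγ against Control and at 2.87 in IFNγ+PJ34 against PJ34, and Fcgr1 lay at -1.57 in PJ34 against Control and at 1.92 in IFNγ+PJ34 against PJ34.

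The 5 genes lay in peak-rich surroundings. Within 50 kb, Fcgr2b had 24, 18, 29 and 24 peaks in Control, IFNγ, PJ34 and IFNγ+PJ34, and no more than 1.40% of the 21911 protein-coding genes had as many in any list. Fcgr4 had 20, 17, 24 and 17 peaks, Fcer1g had 19, 16, 16 and 14, and Fcgr1 had 14, 13, 13 and 19. Fcgr3 had the fewest, with 12, 11, 12 and 10. At least as many as Fcgr3 were found at 7.35, 8.79, 8.24 and 12.0% of genes in these lists. For Fcgr1 that share was at most 6.59%, for Fcer1g at most 4.54% and for Fcgr4 at most 2.16%. The median gene had 2 peaks in IFNγ and 3 in the other lists. Around Fcgr4 the peak count and the covered length moved differently between PJ34 and IFNγ+PJ34, with 24 peaks over 30.9 kb in PJ34 and 17 peaks over 43.8 kb in IFNγ+PJ34. Fewer and wider peaks thus covered more of the locus.

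Of the 71 regions, 36 were found in all 4 lists (50.7%, interval 38.6 to 62.8%), against 38.9% of all regions. IFNγ+PJ34 held 60 of the 71 regions (84.5%, against 61.9% of all regions in that list), Control 54 (76.1%, against 69.3%), PJ34 52 (73.2%, against 65.2%) and IFNγ 40 (56.3%, against 57.4%). Regions found in 1 list alone numbered 0 for IFNγ (against 4.07% of all regions), 8 for IFNγ+PJ34 (11.3%, against 10.4%), 5 for Control (7.04%, against 11.8%) and 5 for PJ34 (7.04%, against 8.93%). In the annotation, 18 of the 71 summits lay in a promoter, 5 in an exon, 7 in an intron and 41 between genes. A member was the nearest gene for 33 regions (14 at Fcgr2b, 9 at Fcgr1, 5 at Fcgr4, 4 at Fcgr3 and 1 at Fcer1g), histone genes beside Fcgr1 for 10, and Fcrla, an Fc receptor-like gene beside Fcgr2b, for 8.

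**Figure D3:**
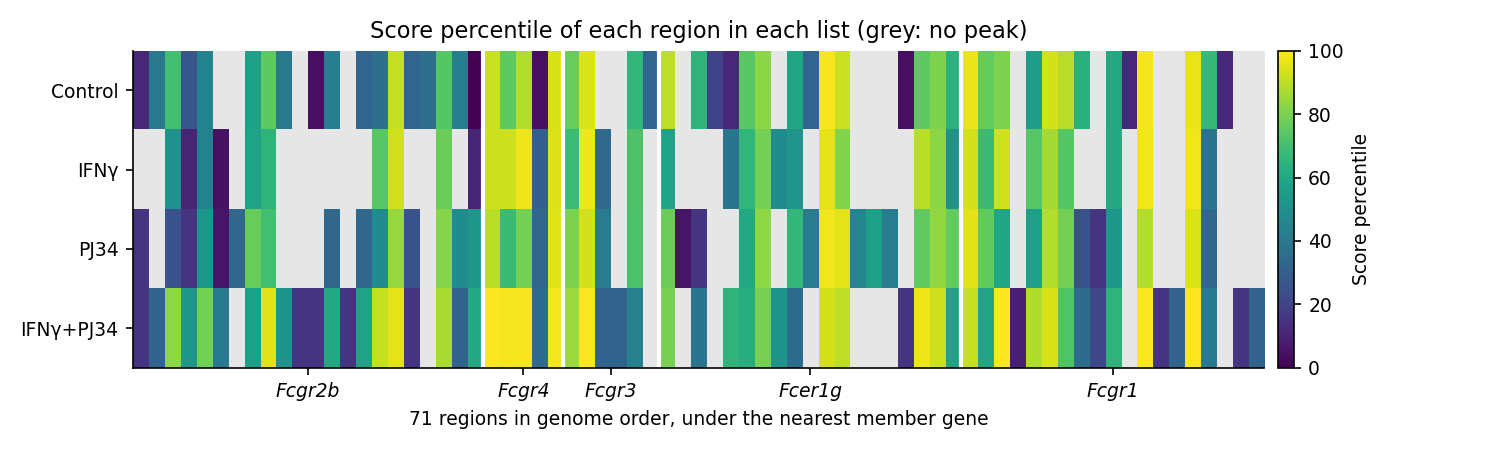
Score percentile (colour) of each of the 71 regions (columns, in genome order under the nearest member gene) in each of the 4 lists (rows), with grey where the list held no peak. The IFNγ+PJ34 row has peaks in 60 regions and the IFNγ row in 40, and the 5 regions nearest to Fcgr4 are filled in every row.

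All 5 regions nearest to Fcgr4 were present in the 4 lists. Besides the promoter (chr1:171016185-171020580), the region 12.1 kb upstream, between Fcgr2b and Fcgr4 (chr1:171003818-171007543), had the same order. Its fold enrichment was 15.2 (Control), 35.1 (IFNγ), 7.36 (PJ34) and 49.6 (IFNγ+PJ34), and its score percentiles were 75.1, 92.3, 68.0 and 98.8. As at the promoter, both lists with IFNγ were above both without it. It also widened, with 1188 bp covered in Control and 3726 bp in IFNγ+PJ34.

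Another region, 20.8 kb upstream of Fcgr4 (chr1:170995785-171000676), was high in all lists, with percentiles of 91.6, 92.4, 89.7 and 99.5. The region 19.4 kb downstream of the Fcgr4 start (chr1:171037094-171038744) had percentiles of 93.8, 94.5, 95.1 and 98.7. By percentile, both stood highest in IFNγ+PJ34 and differed little among the other lists. The fifth region, 14.9 kb downstream, was weak, at 3.96, 29.9, 32.8 and 35.5.

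Within Fcgr2b, the region 7.95 kb downstream of the start (chr1:170966288-170969362, summit in an exon) had fold enrichments of 4.95, 11.9, 5.48 and 24.6 and percentiles of 36.8, 73.9, 48.6 and 91.3. It was higher in both lists with IFNγ, more so than the Fcgr2b promoter region itself (chr1:170972380-170978577, percentiles 91.0, 92.9, 84.7 and 95.9). The region 23.1 kb downstream, past the end of Fcgr2b (chr1:170952066-170954951), had another order. With fold enrichments of 17.5 (Control), 6.34 (IFNγ), 8.68 (PJ34) and 40.0 (IFNγ+PJ34), it was lowest under IFNγ alone. Of the 9 regions at Fcgr2b in both PJ34 and IFNγ+PJ34, 7 were higher in IFNγ+PJ34 by fold enrichment and 0 lower, against 26.9% and 24.0% of all regions.

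The Fcgr3 promoter lay in the longest region of the set, 11207 bp over the gene (chr1:171049708-171060914). In it the lists held 5, 5, 6 and 3 peaks, which covered 4961, 8414, 8145 and 10844 bp (Control, IFNγ, PJ34 and IFNγ+PJ34). The covered length was thus larger in every other list than in Control. Fcgr2b, Fcgr3 and Fcgr4 are related genes with similar coding sequence, and the authors kept uniquely mapped reads, so that signal within their exons can be lost where copies match. The size of this loss was not tested.

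**Figure D4:**
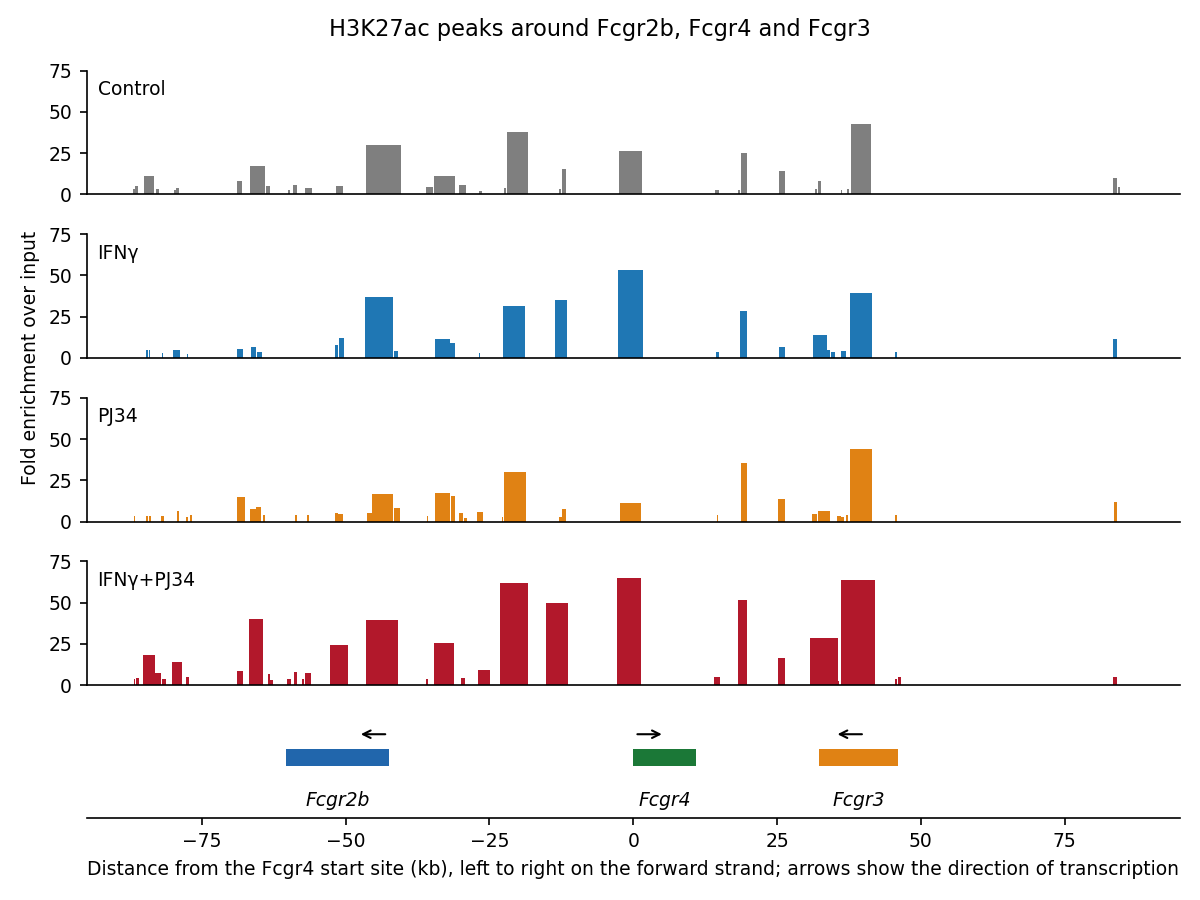
H3K27ac peaks of the 4 lists around Fcgr2b, Fcgr4 and Fcgr3, by distance in kb from the Fcgr4 start (horizontal axis), with bars as wide as the peaks and as high as their fold enrichment over input (vertical axis), and gene bodies with their direction of transcription at the bottom. The Fcgr4 promoter and the region 12.1 kb before it stand at 53.4 and 35.1 in IFNγ and at 65.1 and 49.6 in IFNγ+PJ34, against 26.5 and 15.2 in Control and 11.5 and 7.36 in PJ34.

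Upstream of Fcgr1, the region at 7.20 kb (chr3:96297975-96302702, between genes) was among the highest of all regions. Its fold enrichment was 46.5 (Control), 54.7 (IFNγ), 35.8 (PJ34) and 90.6 (IFNγ+PJ34), with percentiles of 96.9, 97.8, 94.4 and 99.9. The drop of the promoter (chr3:96289867-96295545) in PJ34 was larger than that of this region, at raw ratios to Control of 0.311 and 0.770. A smaller region 9.19 kb upstream (chr3:96302837-96303519) was highest in Control, with percentiles of 66.8, 38.4, 32.8 and 41.0. Of the 9 regions nearest to Fcgr1, 3 were found in all 4 lists, against 38.9% of all regions, and 4 were found in IFNγ+PJ34 alone, against 10.4%, at percentiles of 15.6 to 31.8.

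Downstream of Fcgr1, on the side of the histone genes, a pair of intergenic regions stood higher in both lists with IFNγ than in both lists without it. The region 42.3 kb from the Fcgr1 start (chr3:96247130-96253300), nearest to Hist2h3c1, had fold enrichments of 18.7 (Control), 26.2 (IFNγ), 7.53 (PJ34) and 69.1 (IFNγ+PJ34). Its percentiles were 80.3, 92.7, 58.9 and 99.8, in the order of the Fcgr4 promoter. The region at 37.7 kb (chr3:96254646-96257716), nearest to Hist2h4, stood at percentiles of 55.9, 74.2, 56.3 and 87.9. The region at 42.3 kb also reached within 1 kb of the Hist2h3c1 start, with its summit 4.96 kb from it. The other regions at the starts of histone genes were not higher in both lists with IFNγ. The region at the Hist2h2aa1 and Hist2h3c1 starts stood at 97.1, 93.2, 95.5 and 91.2, that at Hist2h4 at 93.5, 86.3, 88.6 and 94.0, and that at Hist2h2bb and Hist2h3b at 89.1, 73.6, 79.0 and 72.5. Histone genes have near-identical copies, so that their peak values are uncertain after a filter on unique mapping.

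Around Fcer1g, the only region nearest to the gene was its promoter region (chr1:171228724-171237179, 8456 bp). The lists covered 8218, 7695, 8217 and 5606 bp of it in Control, IFNγ, PJ34 and IFNγ+PJ34, so that the narrowest coverage was in the list with the lowest fold enrichment. The other regions in the window lay by neighbouring genes with other functions. At B4galt3, a galactosyltransferase gene, a region (chr1:171269743-171274019) had percentiles of 75.1, 89.7, 75.4 and 97.3, higher in both lists with IFNγ. At Pcp4l1 an intronic region (chr1:171182603-171185986) stood at 90.0, 57.4, 77.6 and 80.1, highest in Control and lowest in IFNγ. The region at the promoter of Ppox, a gene of haem synthesis, stood at 80.5, 82.7, 83.6 and 91.9, and the higher of the Tomm40l promoter regions at 82.7, 79.0, 82.9 and 79.4. The 3 regions at the promoter of Adamts4, a matrix protease gene, were found in PJ34 alone at 42.5, 46.0 and 56.3.

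**Figure D5:**
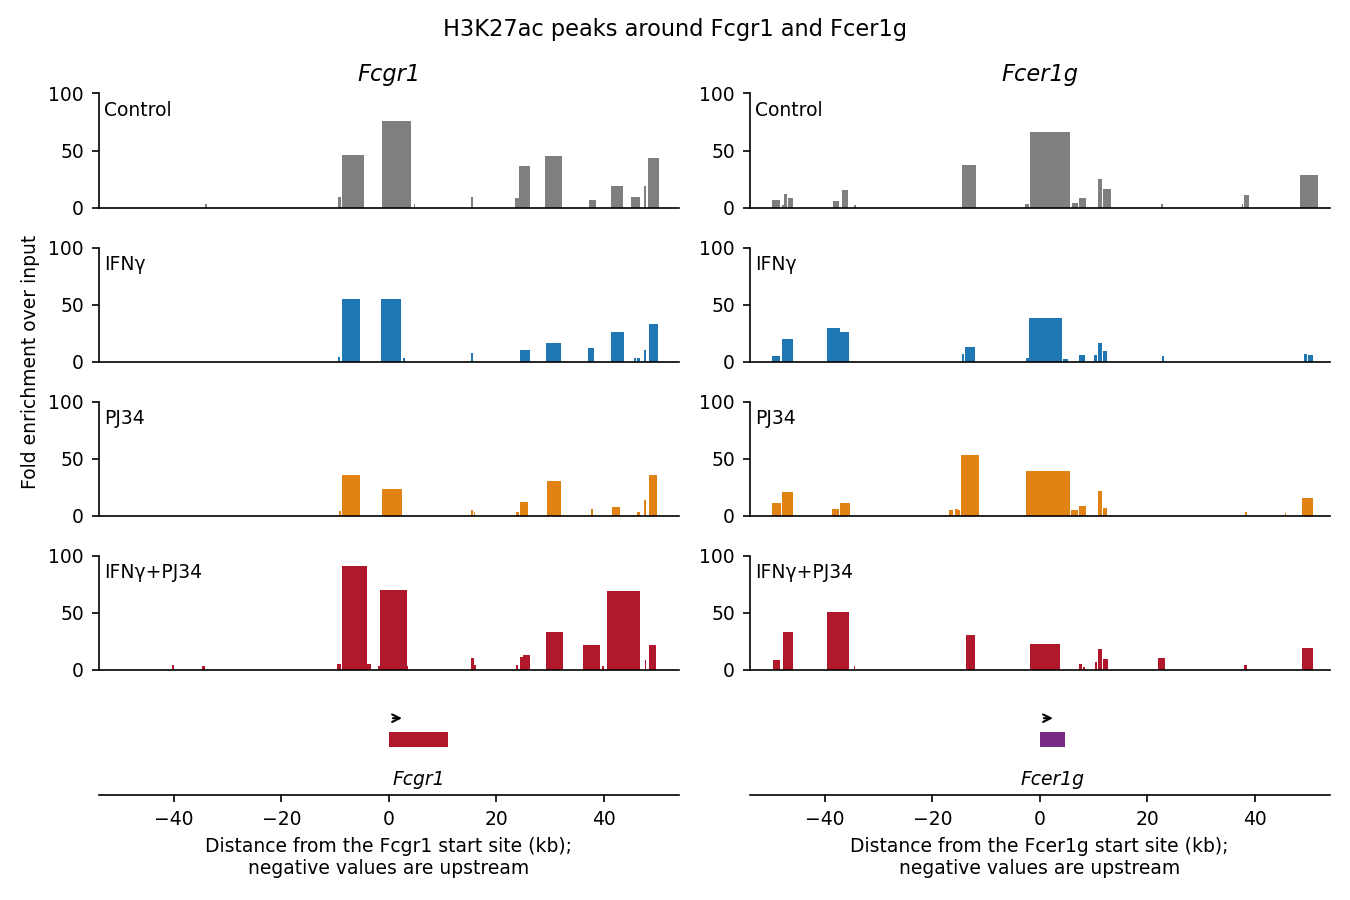
H3K27ac peaks of the 4 lists around Fcgr1 (left) and Fcer1g (right), by distance in kb from the start of each gene (horizontal axis, upstream negative), with bars as wide as the peaks and as high as their fold enrichment over input (vertical axis). The region 7.20 kb before Fcgr1 stands at 90.6 in IFNγ+PJ34 and the Fcgr1 promoter at 23.7 in PJ34, whereas the Fcer1g promoter stands at 66.7 in Control and 22.9 in IFNγ+PJ34.

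Windows of 300 bp centred on the summit of the highest peak of each region were searched for the same letters. A GAS was found in 6 of 71 windows (8.45%, interval 3.16 to 17.5%), against 8.82% of all regions, and the reversed control letters GAANNNTTC in 5 (7.04%, against 7.02%). The stricter form TTCCNGGAA was found in 3 (4.23%, interval 0.880 to 11.9%), against 0.927%. The PU.1 core was found in 17 (23.9%, interval 14.6 to 35.5%), against 14917 of all 55218 windows, and the ISRE core in 3 (4.23%, against 4.46%). The GAS share thus did not stand apart from that of all regions, and the count of 3 for the stricter form is small. A pair of the 6 GAS windows belonged to the intergenic regions downstream of Fcgr1 that stood higher in both lists with IFNγ. The others did not lie in such regions. In Control, IFNγ, PJ34 and IFNγ+PJ34, a region nearest to Fcrla stood at 26.9, 10.4, 15.3 and 53.0. Another there, with the stricter form, had no Control peak and stood at 4.55, 5.78 and 41.0 in the other lists. A region 6.54 kb upstream of Fcgr2b had no IFNγ peak. A region at Adamts4, with the stricter form, was found in PJ34 alone. Other regions described above as higher in both lists with IFNγ held no GAS in their 300 bp windows. These were the Fcgr4 promoter region, the region between Fcgr2b and Fcgr4 with the same order, the exonic region within Fcgr2b and the region at B4galt3. The windows of the pair are shown on the plus strand with the GAS in capitals.
37.7 kb downstream of the Fcgr1 start, chr3:96256106-96256154: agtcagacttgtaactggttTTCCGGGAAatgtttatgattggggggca
42.3 kb downstream of the Fcgr1 start, chr3:96251618-96251666: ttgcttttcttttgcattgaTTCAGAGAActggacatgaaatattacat
The first holds the stricter form and lies in the region with percentiles of 55.9, 74.2, 56.3 and 87.9.

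The genes that act with these receptors were described from a list of 49 genes of Fc receptor biology. Of these, 20 had an IFNγ peak within 50 kb that was absent from Control (40.8%, against 26.0% of all protein-coding genes), and 40 had a Control peak absent from IFNγ (81.6%, against 43.7%). A PJ34 peak absent from Control was found at 32 genes (65.3%, against 29.0%). For IFNγ peaks absent from IFNγ+PJ34 the count was 34 (69.4%, against 34.2%), for IFNγ+PJ34 peaks absent from IFNγ 36 (73.5%, against 38.4%), and for IFNγ+PJ34 peaks absent from PJ34 30 (61.2%, against 34.7%). The share was above the background in all 6 counts, in both directions. Fcrla and Fcrlb lie beside Fcgr2b, and peaks counted for them were also member peaks. Clec4e and Clec4d shared peaks as well, so that some peaks were counted for more than 1 gene. The shares without these genes were not computed. Of the 49 genes, 41 had a promoter peak in the 4 lists. Among all 21911 protein-coding genes, a single list held a promoter peak for at least 10784 (IFNγ) and at most 11088 (Control). The background shares include the genes without a promoter peak, and the part of this difference in the counts was not tested.

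The strongest such peaks within 50 kb of a pathway gene were as follows, and several lay in or beside another gene. Sirpa, the inhibitory receptor for CD47, had an intronic IFNγ peak absent from Control at a percentile of 68.5, and a PJ34 peak absent from Control at 57.6. Trim21, the cytosolic Fc receptor, had an IFNγ peak absent from Control 11.3 kb from its start, in an intron of Olfr549, at 53.7. Pik3cg, a PI3-kinase subunit, had one at 52.2, 48.9 kb from its start, and an IFNγ peak absent from IFNγ+PJ34 at 57.4. Control peaks absent from IFNγ lay 6.71 kb from the start of Dok1 (64.0), an inhibitory adaptor, in an intron of Loxl3, 41.8 kb from Fcer2a (63.3), the low affinity IgE receptor, between genes, and 32.6 kb from Inppl1 (58.0), an inositol phosphatase, in an intron of Anapc15. PJ34 peaks absent from Control lay in introns of Tec (56.3), a kinase, and Rac2 (52.9), a GTPase of phagocytes. IFNγ peaks absent from IFNγ+PJ34 lay between genes, 31.2 kb from Lilrb4a (75.1), an inhibitory receptor, and 9.70 kb from Src (61.3), a kinase. IFNγ+PJ34 peaks absent from IFNγ lay 17.7 kb from Oscar (71.0), which pairs with the γ chain, in an intron of Pik3cd (69.3), a PI3-kinase subunit, and 37.2 kb from Fcgrt (68.9), the neonatal Fc receptor, in an exon of Aldh16a1. Plcg2, a phospholipase, had an intronic IFNγ+PJ34 peak absent from PJ34 at 81.1.

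The promoters of the pathway genes were compared in the same way as those of the receptors. The genes named in the following, other than Dok1, Inppl1, Trim21 and Fcgrt, were chosen after their values were seen. Between IFNγ and Control, 8 of 41 promoters with a peak in both lists were higher (19.5%, against 15.7% of all promoters) and 17 were lower (41.5%, against 16.7%), with a median ratio of 0.751 relative to all promoters. The inhibitors had 0 of 9 higher and 4 of 9 lower (Inpp5d, Inppl1, Dok1 and Dok3), and the ITAM adaptors and their partners had 1 of 4 higher (Clec4e) and 3 of 4 lower (Tyrobp, Trem2 and Clec4d). The adaptors and effectors had 3 of 16 higher and 7 of 16 lower, and the kinases 1 of 7 higher and 1 of 7 lower. The lower share was thus similar for the inhibitors (44.4%) and the adaptors and effectors (43.8%). Inpp5d, which encodes SHIP1, the phosphatase recruited by FcγRIIB, had fold enrichments of 41.3, 12.6, 20.4 and 37.5 in Control, IFNγ, PJ34 and IFNγ+PJ34. Its IFNγ promoter was 0.408 times that of Control relative to the median, where that of Fcgr2b was 1.65 times. The Fcgr2b value did not reach the threshold by score or width, and Inpp5d was not compared on these measures. In IFNγ+PJ34 against PJ34 both were higher, at 2.37 times for Inpp5d and 3.10 times for Fcgr2b.

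Among the other Fc receptors and immunoglobulin-binding genes, 5 of 12 had a promoter peak in IFNγ and in Control, with 3 higher (Fcrl1, Fcrlb and Trim21) and 2 lower (Fcgrt and Fcrls). Trim21 had the order of Fcgr4. Its fold enrichments were 25.0, 45.6, 20.1 and 68.1 in Control, IFNγ, PJ34 and IFNγ+PJ34, which is 2.44 times as high in IFNγ as in Control and 4.36 times as high in IFNγ+PJ34 as in PJ34, relative to the median. Fcgrt had 7.27, 2.69, 6.11 and 8.83 and was lowest in IFNγ. Between PJ34 and Control, 9 of 41 pathway promoters were lower (22.0%, against 15.0%) and 3 higher (7.32%, against 12.4%). Between IFNγ+PJ34 and IFNγ, 11 were higher (26.8%, against 19.8%) and 7 lower (17.1%, against 17.6%). Between IFNγ+PJ34 and PJ34, 13 were higher (31.7%, against 20.4%) and 11 lower (26.8%, against 18.9%).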

How the data were processed

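H3K27ac ChIP-seq lists of BMDMs were analysed. Per the paper's methods and the submitters' processing notes, the authors used Bowtie and mm10 for alignment, retained reads that mapped uniquely, called relaxed peaks with MACS in each replicate against input, and kept peaks overlapping in both replicates. The deposited lists give each peak a score, a fold enrichment over input (a linear ratio) together with its p-value and q-value on the −log10 scale, and hold no read counts. Inputs entered only the authors' peak calling.

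Peaks within 50 kb of a GENCODE M21 basic start site (protein-coding genes) of a member were taken with Python 3.11.15, numpy 2.4.6, pandas 2.3.3 and scipy 1.17.1. Coordinates were checked against mm10 chromosome lengths, with 0 peaks past an end. Peaks of the 4 lists were merged into regions by an overlap of at least 1 bp, and a peak with no overlap in another list was counted as absent from it. Score percentiles were ranks within a list, with ties averaged. Differences were called at 10 percentile points, or at a fold enrichment ratio of 1.5 relative to the median of all regions or promoters. Exact intervals are Clopper-Pearson at 95%. Sequences came from RefSeq (GRCm38.p6). The scripts were tested on simulated data.

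Groups came from the sample titles. The number of value columns with no sample was 0. The members, gene lists and thresholds were chosen with earlier results of these data known. Named genes were the members, genes with a start site within 1 kb of a member region, and at most 3 pathway genes per comparison with the highest-scoring absent peak, and further neighbours (such as Fcrla) and the pathway genes given for their promoters were named after their values were seen. Alternatives were stricter lists, other windows and overlaps, ranks by width or fold enrichment, motif windows, and, added after seeing the data, comprehensive start sites and promoter ratios by score or width.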

Additional observations from a re-analysis of the deposited data

Results flagged for a closer look

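Around the Fc receptor genes, 4 regions were listed in Control and in IFNγ+PJ34 and in neither other list, so that they were absent with IFNγ where PJ34 was not given and present with it where PJ34 was. This is 4 of 71 regions (5.63%, interval 1.56 to 13.8%), near the 3.64% of all regions. The mirror pattern, IFNγ and PJ34 alone, was held by 0 of 71, against 2.70% of all regions. Their percentiles were low, at 40.2 and 31.8 (Control and IFNγ+PJ34) for the one 43.6 kb downstream of the Fcgr2b start, 40.2 and 51.6 for the one at 20.6 kb, 3.96 and 15.6 for the one at 16.9 kb in an Fcgr2b exon, and 3.96 and 15.6 for one beside B4galt3.

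In 2 regions present in all 4 lists, both nearest to Fcrla, the percentile was lower by at least 10 points in IFNγ than in Control and higher by at least 10 points in IFNγ+PJ34 than in PJ34, as in 7.42% of all such regions. One (chr1:170933718-170935743) stood at 69.8, 50.4, 25.3 and 83.1 in Control, IFNγ, PJ34 and IFNγ+PJ34, and the other (chr1:170935884-170937684) at 26.9, 10.4, 15.3 and 53.0. With 1 list per condition, none of these differences was tested.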

How the results depend on the processing

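No paired analysis was possible because the replicates of a condition enter a single deposited list, and none can be left out of it. Of 327 values under an alternative setting, 275 stayed within their interval, 1.5-fold or 10 points of the reported value, 51 moved further and 1 that was past the threshold turned its sign. Of the 184 values that carry a sign, 10 had the opposite sign. Among promoters past the threshold this was Fcer1g in PJ34 against Control, at 0.17 (log2) by width. Among promoters under it, the log2 ratio was 0.13 for Fcgr1 in IFNγ against Control and -0.18 for Fcgr3 in PJ34 against Control, both by score, -0.029 for Fcgr2b in IFNγ+PJ34 against IFNγ relative to the median of all regions, and -0.018 for Fcgr4 in the same comparison by width. The other 5 were medians over the regions in IFNγ against Control, which were near 0 as reported (0.070 log2 and 0.38 points) and reached -0.020 log2 and -2.00 points within 100 kb. No median over the regions moved by more than 1.5-fold or 10 points. The cause of the moves was not tested, beyond the smaller number of peaks that a stricter list or a narrower window holds.

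Member peaks in Control, IFNγ, PJ34 and IFNγ+PJ34 were 36, 37, 37 and 39 among the higher-scoring 50% of peaks, 34, 27, 35 and 33 where the nearest gene had to be a member, and 20, 20, 21 and 19 within 10 kb. Regions in all 4 lists were 63.6% in the higher-scoring 50%, 33.8% with an overlap of at least 50%, and 78.8% when peaks within 1 kb were joined. In the higher-scoring 50%, 11.1% of Control peaks were absent from IFNγ and 20.5% of IFNγ+PJ34 peaks from IFNγ. When peaks within 1 kb counted as shared, 14.7% of Control peaks were absent from IFNγ, 0% of IFNγ peaks from IFNγ+PJ34 and 7.58% of IFNγ+PJ34 peaks from PJ34, and with an overlap of at least 50% the last was 37.9%. PJ34 peaks absent from Control were 5.71% with a member as nearest gene and 4.76% within 10 kb. The shares over all peaks or regions were not computed in these settings. The values of this paragraph therefore cannot be set against a background.

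Over whole regions, GAS was found in 36.6% (against 29.0% of all regions), the stricter GAS in 12.7% (interval 5.96 to 22.7%, against 4.50%), the control letters in 28.2% (against 23.3%), the ISRE core in 32.4% (interval 21.8 to 44.5%, against 17.0%) and the PU.1 core in 69.0% (against 58.0%), and the PU.1 core in 40.8% (against 45.1%) of windows of 500 bp. Region length was not matched in these shares. The share of pathway genes was above that of all genes in the same setting in 42 of 42 counts, over 7 settings. With an IFNγ peak absent from Control they were 24.5% within 10 kb (against 8.54% of all genes) and 59.2% within 100 kb (against 40.6%). Within 10 kb the other shares were 44.9% (Control absent from IFNγ, against 18.0%, and PJ34 absent from Control, against 11.3%), 40.8% (IFNγ absent from IFNγ+PJ34, against 13.1%), 36.7% (IFNγ+PJ34 absent from IFNγ, against 14.7%) and 28.6% (IFNγ+PJ34 absent from PJ34, against 12.1%). In the higher-scoring 50% they were 59.2% (Control absent from IFNγ, against 27.8%), 44.9% (PJ34 absent from Control, against 15.2%, and IFNγ+PJ34 absent from PJ34, against 21.0%) and 42.9% (IFNγ absent from IFNγ+PJ34, against 21.1%). With 1 kb they were 49.0% (PJ34 absent from Control, against 17.4%), 46.9% (IFNγ absent from IFNγ+PJ34, against 23.1%) and 55.1% (IFNγ+PJ34 absent from IFNγ, against 27.7%).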
